A study of Mus musculus with 12 samples.

Results

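The response of A20 lymphoma to GLA-SE was read from 8 of the 12 tumors of the study, the 4 injected with GLA-SE and the 4 injected with PBS, which were chosen by their titles alone. GLA-SE, also called G100, is glucopyranosyl lipid A (GLA), a synthetic agonist of Toll-like receptor 4 (TLR4), formulated in a stable oil-in-water emulsion (SE). All of the hosts were female Balb/c mice bought at 7 to 8 weeks of age, and each carried a subcutaneous tumor grown from implanted A20 cells, a B cell lymphoma line derived from a Balb/c mouse. Starting about 7 days after implantation, the tumors were injected every other day, 3 times in all, either with PBS or with 10 ug of GLA in 50 ul of 2% SE, and they were collected 2 h after the last injection. Both groups thus shared the host, the tumor line and the injection schedule, and they differed in GLA and in the emulsion together, so that the part of each cannot be told apart in this comparison. RNA of the whole tumor was counted on a mouse immune panel of the nCounter platform (PanCancer Immune Profiling), in which color-coded probes count RNA molecules without amplification. The panel lists 770 genes, of which 20 are reference genes and 750 were compared. The labels number the mice, so each tumor came from a mouse of its own.

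TLR4, with its partner MD-2 (encoded by Ly96) and the coreceptor CD14, recognises lipid A. The receptor signals through MyD88 toward NF-kB, MAP kinases and inflammatory cytokines, and through TRIF (encoded by Ticam1) toward IRF3, type I interferon and the interferon-stimulated genes. Feedback inhibitors such as A20 (the protein encoded by Tnfaip3, unrelated to the cell line), IkB-alpha and the SOCS proteins are themselves induced and limit the response. In a tumor, these programs run both in the lymphoma cells, which can carry TLR4, and in the macrophages, neutrophils, endothelium and lymphocytes around them.

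Each gene was read on 2 scales. On the reference-gene scale, counts were divided by a factor from 15 reference genes, and a change was read against those genes. On the panel scale, counts were divided by a factor from the middle of the panel itself, and a change was read against the typical panel gene. Values per tumor below are normalized counts on the reference-gene scale unless the panel scale is named, differences are log2 fold changes of GLA-SE over PBS with their standard errors (n = 4 tumors per group), and a gene is called where the adjusted p of edgeR's quasi-likelihood test was under 0.05. Total counts of the PBS tumors were 812522 to 1086462, and those of the GLA-SE tumors 1186487 to 1612415. The factors of both scales parted the groups, since the log2 ratio of the panel factor to the reference-gene factor was -0.56 to -0.27 for PBS and 0.28 to 0.70 for GLA-SE. GLA-SE replicate 3 stood apart from the other GLA-SE tumors in many genes, and leading results are given with and without it. Markers of B cells, the labelled lineage of the lymphoma, were high in every tumor, with 10 B cell markers summing to 29303 to 33147 normalized counts in PBS and 26102 to 29103 in GLA-SE tumors.

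Most of the panel was higher in the GLA-SE tumors. On the reference-gene scale, 510 of 750 genes (68.0%) were higher and 4 (0.533%) were lower, and 236 were not called. The median log2 fold change over the 750 genes was 0.89, a fold of 1.85, with quartiles of 0.42 and 1.38. In 476 genes (63.5%) every GLA-SE tumor lay above every PBS tumor, and in 8 (1.07%) every GLA-SE tumor lay below. Relative to the typical panel gene, 153 genes (20.4%) were higher and 163 (21.7%) lower. All 153 genes called higher on the panel scale were also called higher on the reference-gene scale, whereas of the 163 called lower on the panel scale 52 were called higher on the reference-gene scale, 107 were not called there and 4 were called lower on both. A call on the lower side of the panel scale is thus a position relative to the rest of the panel and, for all but those 4 genes, not a fall against the reference genes that passed the test. The counts rested on these choices. With the 4 SE tumors in the same fit, which added their spread to the estimate, 253 genes were called higher and 0 lower on the reference-gene scale and 59 and 30 on the panel scale. With the TMM scaling of edgeR, which also assumes that most genes do not change, 148 were called higher and 168 lower, and with a scaling to each tumor's median count 61 and 307. Of the genes named below, Anp32b, Apoe, C4b, Ccl11, Ccl21a, Cd79b, Clu, Col1a1, Ctsw, Fos, Glycam1, Il1rl1, Lbp, Marco, Ms4a1, Ncr1, Nup107, Plau, Plaur, Thy1, Tlr4, Tlr8 and Tnfrsf1a were not called on the reference-gene scale in the fit with the SE tumors. On the panel scale, 22 of the named genes were followed through that fit, and 14 of them lost their call while 8 kept it.

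**Figure D1:**
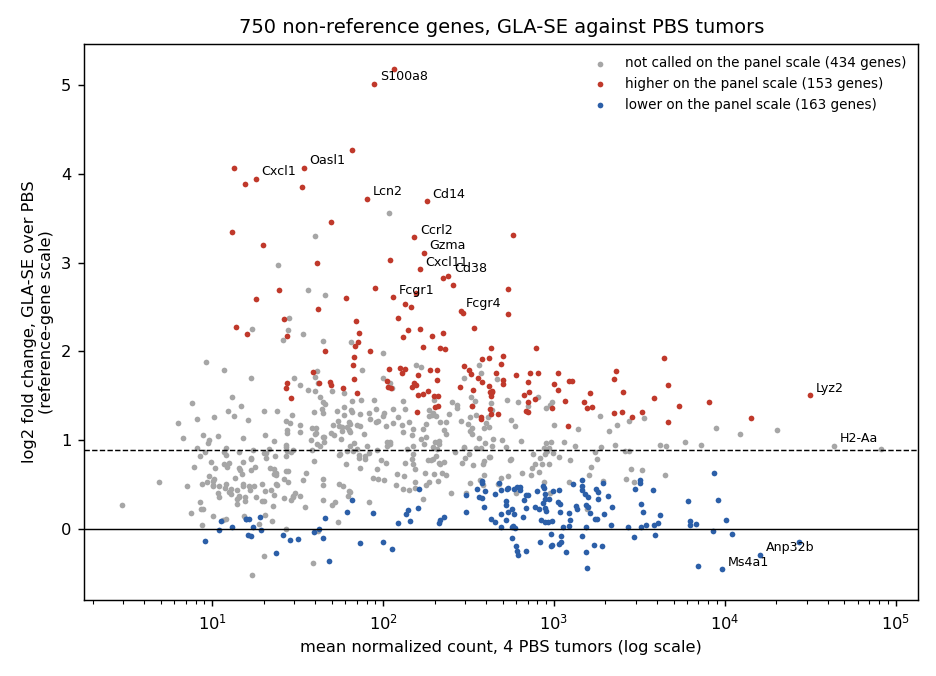
All 750 non-reference genes, with the mean normalized count in the PBS tumors on the x axis (log scale) and the log2 fold change of GLA-SE over PBS on the reference-gene scale on the y axis (n = 4 tumors per group). Red points were called higher and blue points lower than the panel median on the panel scale, grey points were called on neither side there, and the dashed line marks the panel median of 0.89, with most points above the solid line at 0.

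Of the 324 genes that rose at least 1 on the log2 scale, 316 were called, and 69 genes rose at least 2, 19 at least 3 and 5 at least 4, all of them called. Among called genes with at least 20 counts in the GLA-SE tumors and no overlap of the groups, the 15 largest rises were, in order, those of Il1b, S100a8, Ptgs2, Oasl1, Il6, Cxcl1, Aire, Il1a, Lcn2, Cd14, Nlrp3, Cxcl2, Ccl5, Ccrl2 and Cxcr2, from 5.18 ± 1.01 for Il1b to 3.20 ± 0.75 for Cxcr2. The order of the largest rises depended on 1 tumor. Of the 500 called genes with a mean of at least 20 normalized counts in the GLA-SE tumors, 322 were highest in GLA-SE replicate 3, and of the 19 with a rise over 3, 16 were. Without that tumor 6 called genes rose over 3, and of the 15 genes just listed 5 remained among the 15 largest rises picked in the same way.

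Leading genes differed in their spread over the treated tumors. Cxcl1, which encodes a neutrophil-attracting chemokine, held 19.3, 25.1, 12.6 and 15.3 normalized counts in the PBS tumors and 32.0, 57.8, 774 and 251 in the GLA-SE tumors. All GLA-SE tumors were above all PBS tumors, but replicate 3 held most of the signal, and the log2 fold change of 3.94 ± 0.98 (adjusted p = 0.00748) became 2.65 (adjusted p = 0.00888) without it. Ccrl2, an atypical chemokine receptor that binds chemerin, held 169.8, 123, 130.2 and 187 in the PBS tumors and 443, 576, 4388 and 539 in the GLA-SE tumors, so that its rise of 3.29 ± 0.79 (adjusted p = 0.0069) became 1.77 (adjusted p = 0.000169) without replicate 3. Gzma, which encodes the granule protease granzyme A of cytotoxic lymphocytes, was high in every GLA-SE tumor. It held 241, 169.8, 119.9 and 160.3 counts in the PBS tumors and 853, 1433, 1151 and 2530.1 in the GLA-SE tumors, a rise of 3.11 ± 0.37 (adjusted p = 0.000299) that was 3.22 without replicate 3. Cxcl11, a ligand of the T cell chemokine receptor CXCR3, held 232, 138, 134 and 151 in the PBS tumors and 884, 1743, 1399 and 954 in the GLA-SE tumors. Its rise of 2.93 ± 0.28 (adjusted p = 0.000182) was 2.87 without replicate 3, and the groups did not overlap.

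A ranking by the gap between the groups, that is the lowest GLA-SE tumor over the highest PBS tumor, favors genes that were high in every treated tumor. It was led by S100a8 with a ratio of 5.48, Lcn2 with 4.88, Fcgr4 with 4.10, Cd38 with 4.03 and Cxcl11 with 3.81. Lcn2 encodes lipocalin 2, an iron-sequestering protein of neutrophils and of inflamed tissue, and it held 92.5, 88.4, 73.4 and 69.6 counts in the PBS tumors against 451, 478, 2558 and 788 in the GLA-SE tumors. Its log2 fold change was 3.72 ± 0.59 (adjusted p = 0.00105), and it was 2.82 without replicate 3. Cd38 encodes a NAD-consuming surface enzyme of activated lymphocytes and myeloid cells. It held 266, 146, 255 and 298 counts in the PBS tumors and 1229, 1199.6, 3124 and 1419.9 in the GLA-SE tumors, a rise of 2.85 ± 0.37 (adjusted p = 0.000419). Its relative Bst1, which encodes the related enzyme CD157, held 522, 345, 389.8 and 466 counts in the PBS tumors and 1309, 1638, 2099 and 2022 in the GLA-SE tumors and rose by 2.04 ± 0.19 (adjusted p = 0.000182). On the panel scale these 2 genes were called higher too, by 1.92 and 1.16, and they stayed called when any single tumor was left out.

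**Figure D2:**
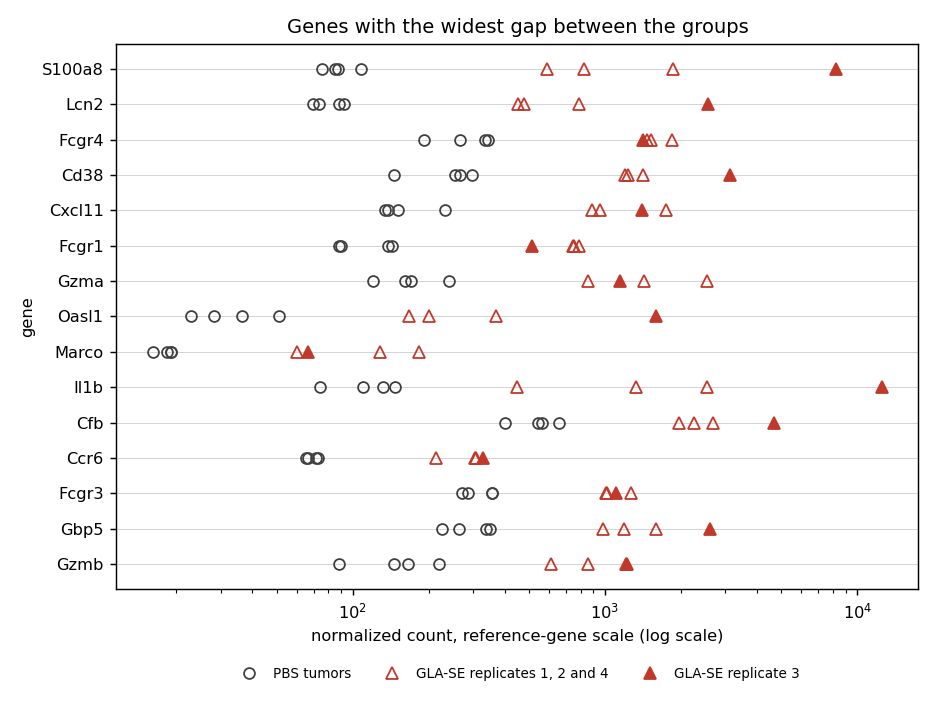
Normalized counts per tumor (x axis, log scale) for the 15 called genes with the widest gap between the groups, ordered by that gap. Circles are the 4 PBS tumors, triangles the 4 GLA-SE tumors and filled triangles GLA-SE replicate 3, and no GLA-SE tumor lies below a PBS tumor in any of the 15 genes.

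Grouped by function, the families did not move to the same degree. Over 48 lists that together hold all 750 genes, the median log2 fold change on the reference-gene scale ran from 0.06 for ubiquitous RNA, proteasome and chromatin genes to 1.99 for the IL-1 family, against 0.89 for the whole panel. The lists are described below from the receptors to the genes that moved least, each with the share called over all 750 genes in mind, which was 68.0% higher on the reference-gene scale and, on the panel scale, 20.4% higher and 21.7% lower.

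**Figure D3:**
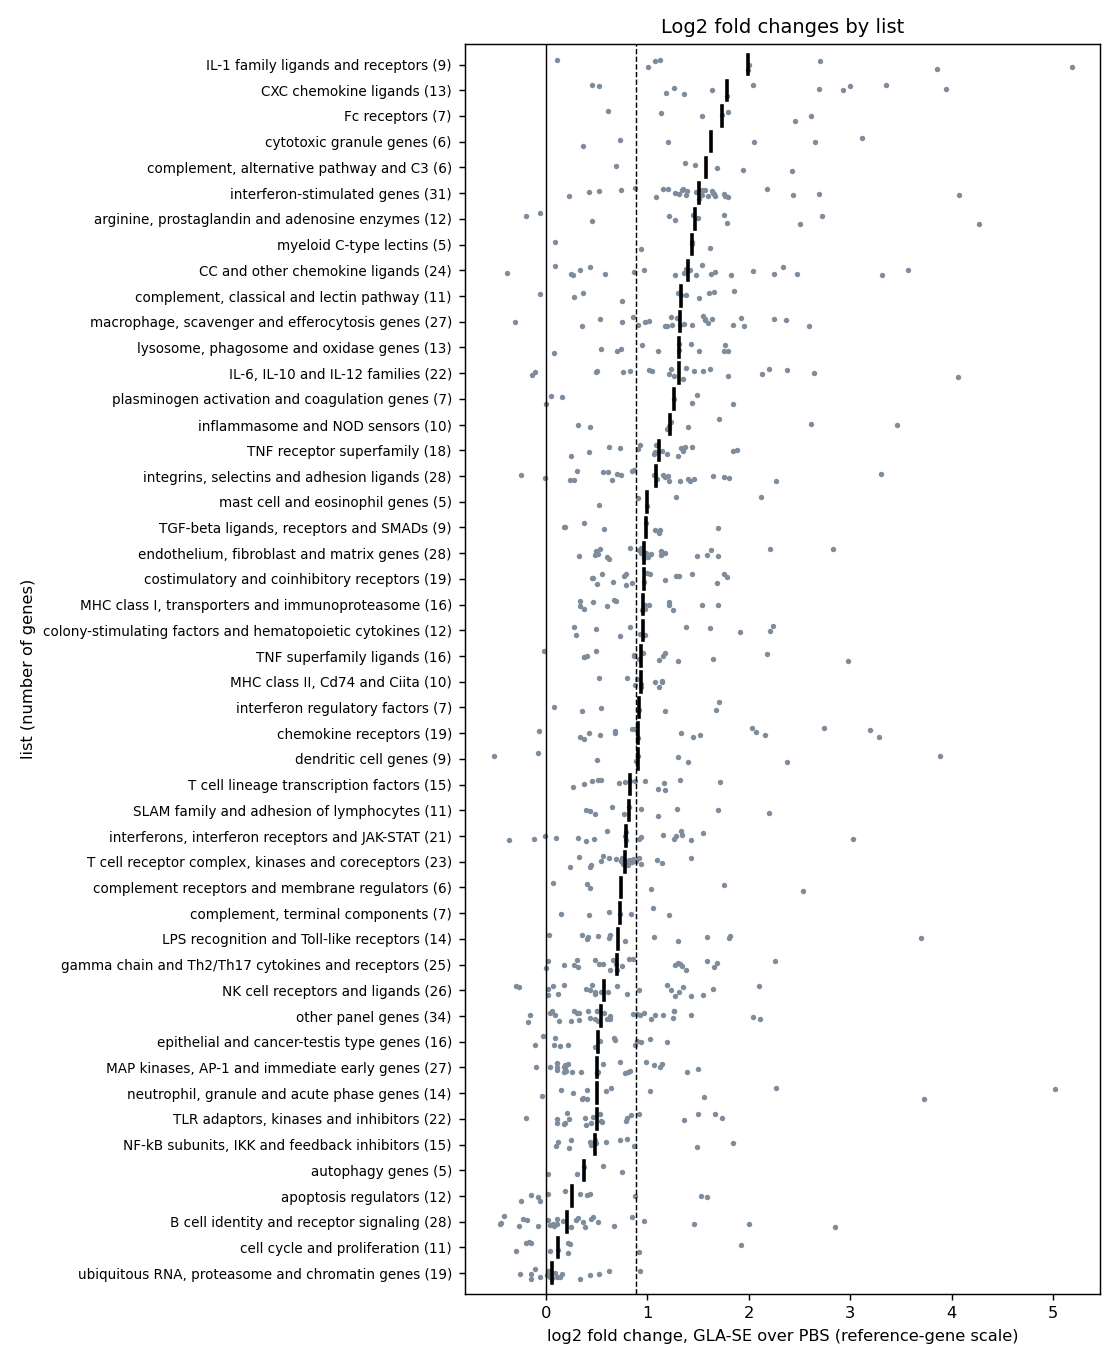
Log2 fold changes of GLA-SE over PBS on the reference-gene scale (x axis) for every gene of the 48 lists, ordered by the list median. Each small point is a gene, each black bar a list median, the solid line is 0 and the dashed line the panel median of 0.89, and the bars run from 0.06 for the ubiquitous genes at the bottom to 1.99 for the IL-1 family at the top.

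The genes of lipid A recognition rose unevenly, with the coreceptor ahead of the receptor. Of 14 genes for LPS recognition and Toll-like receptors, 12 were called higher and none lower on the reference-gene scale, with a median of 0.71, and on the panel scale 4 were higher (2 without PBS replicate 2 or GLA-SE replicate 2, 0 without PBS replicate 3) and 3 lower. Cd14, which encodes the coreceptor that hands lipid A to TLR4, held 193, 165, 139.7 and 226 counts in the PBS tumors and 394, 523, 7203 and 1245 in the GLA-SE tumors. It rose by 3.69 ± 0.93 (adjusted p = 0.00789) and by 1.99 without replicate 3. Lbp, the serum protein that carries LPS to CD14, held 159.7, 54.3, 93.9 and 124 in the PBS tumors and 238, 478, 449.9 and 342 in the GLA-SE tumors and rose by 1.80 ± 0.35 (adjusted p = 0.00263). Tlr4 itself rose by 0.51 ± 0.15 (adjusted p = 0.0139) and Ly96 by 0.78 ± 0.19 (adjusted p = 0.00706), both short of the panel median. Tlr2, the receptor for bacterial lipopeptides, rose by 1.81 and Tlr8, a sensor of RNA, by 1.59. The lowest of the list was Cd180, a TLR4-like receptor of B cells, which was lower on the panel scale, at -0.84 ± 0.20 (adjusted p = 0.00931).

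Downstream of the receptors, the lists of signaling genes had medians under that of the panel. Of 22 TLR adaptors, kinases and inhibitors 16 were called higher on the reference-gene scale, but with a median of 0.50 only 3 were higher on the panel scale and 12 were lower. Among 15 NF-kB genes 11 were higher on the reference-gene scale, none was higher on the panel scale and 8 were lower there. The highest of the former were Irak2, a kinase of the MyD88 complex, at 1.74 ± 0.31, and Ikbke, the inducible IKK-epsilon kinase, at 1.66 ± 0.23, both called higher on the panel scale with any tumor left out. Tnfaip3, the ubiquitin-editing inhibitor of NF-kB, held 365, 341, 320.3 and 422 counts in the PBS tumors and 670.5, 763, 2897 and 871 in the GLA-SE tumors and rose by 1.84 ± 0.47 (adjusted p = 0.00802). Nfkbia, which encodes IkB-alpha, rose by 1.49 ± 0.42 (adjusted p = 0.0126). Without GLA-SE replicate 3 these rises were 1.09 and 0.83, both still called. The NF-kB subunit gene Nfkb2 held means of 10154 and 10884 in the PBS and GLA-SE tumors and was lower on the panel scale, at -0.81 ± 0.10. Ticam2, the adaptor that bridges TLR4 to TRIF, was among the 15 largest falls on the panel scale, at -1.09 ± 0.15 (adjusted p = 0.00123).

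The MAP kinase list had a median of 0.50. Of 27 MAP kinases, AP-1 and immediate early genes 16 were higher on the reference-gene scale, and on the panel scale 15 were lower and 1 was higher (2 without GLA-SE replicate 1), which was Fos with 0.61 ± 0.22 (adjusted p = 0.0465). That call ended without PBS replicate 1, 2 or 3 or GLA-SE replicate 3 or 4. Fos, a subunit of AP-1, rose by 1.49 ± 0.27 on the reference-gene scale and Cebpb, a transcription factor of acute inflammation, by 1.39 ± 0.26. The lowest was Myc, which held 3043, 3056, 2754 and 2856 counts in the PBS tumors and 2142, 2326, 3569.9 and 2914 in the GLA-SE tumors. Its groups overlapped, it was not called on the reference-gene scale (adjusted p = 0.601), and on the panel scale it was lower (adjusted p = 0.000959).

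Among cytokines, the IL-1 family had the highest list median, 1.99, with 8 of 9 genes higher on the reference-gene scale and 4 on the panel scale (1 without PBS replicate 1, 2 or 3, 2 without PBS replicate 4). Its place rested on GLA-SE replicates 3 and 4, whose median log2 ratios to the PBS mean were 2.90 and 1.92. In replicates 1 and 2 these were 0.83 and 1.30, under the 1.42 and 1.71 of the Fc receptors. Beyond the ligands, genes of the receptor antagonist and of receptors of the IL-1 family also rose. Il1rn, which encodes the receptor antagonist, held 670.2, 498, 440.3 and 528 counts in the PBS tumors and 946, 1594, 9374 and 1997 in the GLA-SE tumors, a rise of 2.70 ± 0.68 (adjusted p = 0.00807) that was 1.50 without GLA-SE replicate 3. Il1r2, the decoy receptor, rose by 1.99 ± 0.49 and Il1rl1, which encodes the IL-33 receptor ST2, by 2.00 ± 0.42. Of 22 genes of the IL-6, IL-10 and IL-12 families 15 were higher, and Osm, which encodes oncostatin M, rose by 2.13 ± 0.54 (adjusted p = 0.00789) with GLA-SE replicate 3 and by 1.36 without it. Among 25 genes of the common gamma chain, Th2 and Th17 families 15 were higher, led by the IL-2 receptor. Il2ra, its high-affinity chain CD25, held 211, 93.4, 151 and 202 counts in the PBS tumors and 466, 678, 1081 and 908 in the GLA-SE tumors and rose by 2.25 ± 0.33 (adjusted p = 0.000695). Il2rb rose by 1.68 ± 0.27 and Il15ra, which presents IL-15 to T and NK cells, by 1.66 ± 0.28, and all 3 were called on the panel scale with any tumor left out. The Th2 and Th17 cytokines themselves were close to 20 counts or under it, with means of 12.6 and 21.0 for Il4 and 10.2 and 14.7 for Il17a in the PBS and GLA-SE tumors.

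The growth factor and TNF families followed the panel more closely. Of 12 colony-stimulating factor and hematopoietic cytokine genes 9 were higher, with a median of 0.95. Csf3r, the G-CSF receptor of neutrophils, rose by 2.21 ± 0.46 and Csf2rb, the shared beta chain of the GM-CSF, IL-3 and IL-5 receptors, by 1.91 ± 0.23. Of 18 TNF receptor genes 16 were higher, with a median of 1.11, among them the genes of both receptors for TNF, Tnfrsf1a at 1.35 ± 0.15 and Tnfrsf1b at 1.84 ± 0.40. Of 16 TNF ligand genes 9 were higher, and Tnf itself, with 244, 192, 192 and 219.7 counts in the PBS tumors and 209.7, 249, 809.8 and 374 in the GLA-SE tumors, was not called (adjusted p = 0.0605, and 0.036 with DESeq2). The largest rise among these ligands was that of Tnfsf15, a ligand of the death receptor DR3, at 2.97 ± 0.91 (adjusted p = 0.0185), which was 1.11 without GLA-SE replicate 3.

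Chemokine ligands had higher medians than their receptors. Of 24 CC and other ligands 18 were higher, with a median of 1.40, and 8 were higher on the panel scale (4 without PBS replicate 1, 2 or 3, 5 without PBS replicate 4). Of 13 CXC ligands 9 were higher, with a median of 1.78, and 7 were higher on the panel scale (4 without PBS replicate 1, 3 or 4). Ccl22, which draws CCR4-bearing T cells, held 45.8, 48.2, 31.6 and 40.7 counts in the PBS tumors and 160.1, 194, 457 and 113 in the GLA-SE tumors and rose by 2.47 ± 0.44 (adjusted p = 0.00166). Ccl7, a monocyte chemokine, rose by 2.24 ± 0.42 and Ccl11, which encodes eotaxin, by 2.04 ± 0.25. Each of these 3 was called on the panel scale with any tumor left out. Ccl19, a ligand of CCR7, held 1042, 778, 1151 and 914 counts in the PBS tumors and 1101, 1181, 829.7 and 1009.8 in the GLA-SE tumors, was not called on the reference-gene scale (adjusted p = 0.643) and was lower on the panel scale, at -0.78 ± 0.20. Ccl21a, the other CCR7 ligand, was high in single tumors, with 65.1, 55.3, 271 and 42.4 counts in the PBS tumors and 4230.5, 784, 53.8 and 98.1 in the GLA-SE tumors. Its groups overlapped, and its rise of 3.56 ± 1.35 (adjusted p = 0.0415) lost its call without PBS replicate 1, 2 or 4 or GLA-SE replicate 1 or 2 and was 1.52 without GLA-SE replicate 1. Of 19 chemokine receptors 11 were higher, with a median of 0.91. Cxcr2, the neutrophil receptor of Cxcl1, held 17.3, 24.1, 21.3 and 17.0 in the PBS tumors and 72.3, 50.0, 505 and 108 in the GLA-SE tumors, and it rose by 3.20 ± 0.75 with replicate 3 and by 1.94 without it. Ccr6, a receptor of B cells and of some dendritic and T cells, rose by 2.07 ± 0.18.

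Interferon-stimulated genes rose together. Of 31 genes 29 were higher on the reference-gene scale, with a median of 1.51, and 18 were higher and 1 lower on the panel scale. In 29 of the 31 every GLA-SE tumor lay above every PBS tumor on the reference-gene scale, against 63.5% of all genes. Rsad2, which encodes the antiviral enzyme viperin, held 24.4, 33.2, 11.8 and 28.8 counts in the PBS tumors and 149.8, 154, 241 and 89.4 in the GLA-SE tumors, a rise of 2.69 ± 0.40 (adjusted p = 0.000695). Isg15, a ubiquitin-like protein, held 202, 186, 181 and 199 in the PBS tumors and 549.6, 612, 1645 and 666 in the GLA-SE tumors and rose by 2.17 ± 0.35 (adjusted p = 0.00109). GLA-SE replicate 3 was the highest of the treated tumors for both, but every treated tumor was above every PBS tumor. Of 21 genes of interferons, their receptors and JAK-STAT signaling 16 were higher on the reference-gene scale, and 3 were higher and 5 lower on the panel scale (3 without PBS replicate 1 or 2 or GLA-SE replicate 4). Ifng, the type II interferon, held means of 24.0 and 60.5 in the PBS and GLA-SE tumors and rose by 1.33 ± 0.31 (adjusted p = 0.0061). The type I interferon genes Ifna1, with means of 48.0 and 37.1, and Ifna4, with 20.2 and 25.0, were not called on the reference-gene scale. On the panel scale Ifna1 was lower, at -1.25 ± 0.39 (adjusted p = 0.0299), a call that ended without PBS replicate 1 or 2 or GLA-SE replicate 1 or 4, and near-identical interferon genes may share probes. Socs3, which blocks JAK-STAT signaling from the IL-6 receptor, held 127, 70.3, 108 and 132 counts in the PBS tumors and 349, 515, 2012 and 703 in the GLA-SE tumors. It rose by 3.03 ± 0.55 (adjusted p = 0.00186), and Socs1, the inhibitor of interferon signaling, by 1.55 ± 0.28. The transcription factor gene Irf7 rose by 1.68 ± 0.18 and Irf4 by 1.70 ± 0.29, while Irf5 was lower on the panel scale, at -0.54 ± 0.09.

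The promoters of 4 of these genes are printed, from 250 bases before to 50 after the start of transcription, because they carry the letters of the 2 response elements that the pathway is known to use. Capitals mark matches, on either strand, to an interferon-stimulated response element (ISRE) written as GAAA, 2 bases of any kind and GAAA, and to an NF-kB element written as GGGA, 2 bases of any kind and TTCC, and in none of the 4 do matches of both kinds share bases. The sequences are from RefSeq (mouse assembly GRCm38.p6) and are read 5' to 3' on the gene's strand. Gbp5, an interferon-induced GTPase, lies at chr3:142496684-142496983 on the plus strand with 1 match to each element, Isg15 at chr4:156200769-156201068 on the minus strand with 3 ISRE matches, Cxcl10 at chr5:92348840-92349139 on the minus strand with 1 match to each, and Cxcl1 at chr5:90890995-90891294 on the plus strand with 2 NF-kB matches, which overlap.
Gbp5: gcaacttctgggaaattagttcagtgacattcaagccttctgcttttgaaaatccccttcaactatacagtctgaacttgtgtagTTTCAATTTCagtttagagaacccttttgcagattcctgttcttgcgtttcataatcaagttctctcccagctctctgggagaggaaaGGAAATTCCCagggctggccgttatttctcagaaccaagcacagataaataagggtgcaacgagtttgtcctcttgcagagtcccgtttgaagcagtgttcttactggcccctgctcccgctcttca
Isg15: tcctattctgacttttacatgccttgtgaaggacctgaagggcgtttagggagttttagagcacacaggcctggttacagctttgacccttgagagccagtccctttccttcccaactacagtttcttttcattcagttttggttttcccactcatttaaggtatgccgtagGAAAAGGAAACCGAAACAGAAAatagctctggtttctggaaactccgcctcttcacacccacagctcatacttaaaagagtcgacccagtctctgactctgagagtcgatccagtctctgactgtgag
Cxcl10: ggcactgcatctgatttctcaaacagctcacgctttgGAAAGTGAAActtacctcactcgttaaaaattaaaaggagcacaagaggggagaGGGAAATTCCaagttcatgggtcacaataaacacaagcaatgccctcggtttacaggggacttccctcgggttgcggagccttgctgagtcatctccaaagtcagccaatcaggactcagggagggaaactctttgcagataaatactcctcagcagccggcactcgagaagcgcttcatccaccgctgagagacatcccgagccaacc
Cxcl1: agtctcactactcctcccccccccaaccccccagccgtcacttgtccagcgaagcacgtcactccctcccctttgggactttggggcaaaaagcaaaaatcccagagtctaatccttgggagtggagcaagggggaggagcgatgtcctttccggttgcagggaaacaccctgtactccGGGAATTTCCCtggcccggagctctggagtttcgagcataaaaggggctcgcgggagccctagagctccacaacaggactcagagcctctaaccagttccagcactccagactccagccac

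Over the whole genome, 1079 of 27025 genes with a promoter sequence (3.99%) held at least 1 ISRE match in such a window and 441 (1.63%) an NF-kB match. Of the panel, 549 of 750 genes had a sequence, and 50 of them (9.11%) held an ISRE match and 26 (4.74%) an NF-kB match. Among interferon-stimulated genes 13 of 25 with a sequence held an ISRE match. A match is a description of the letters only. Cxcl10, a CXCR3 ligand whose window held both, rose by 2.04 ± 0.27 (adjusted p = 0.00044), and Gbp5 by 2.44 ± 0.32.

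The early complement pathways had medians above that of the panel, and the terminal pathway did not. Of 11 genes of the classical and lectin pathways 8 were higher, with a median of 1.33, and on the panel scale 7 were. Of 6 genes around C3 and the alternative pathway 4 were higher, with a median of 1.58, and 4 were higher on the panel scale. C4b, the complement component cleaved by C1s, held 617, 343, 439 and 551 counts in the PBS tumors and 1698, 1960.4, 2027 and 1374 in the GLA-SE tumors and rose by 1.86 ± 0.21 (adjusted p = 0.000235). Cfb, factor B of the alternative convertase, held 656, 403, 540.5 and 565 in the PBS tumors and 1970.1, 2253, 4685 and 2690.4 in the GLA-SE tumors and rose by 2.42 ± 0.29 (adjusted p = 0.000315). Neither overlapped between the groups. Serping1, which encodes the C1 inhibitor, rose as well, by 1.65 ± 0.23. Complement receptors and membrane regulators had a median of 0.74, under that of the panel, with 3 of 6 higher. On the panel scale 2 of them were higher and 1 was lower. Their largest rise was that of C5ar1, the receptor for the anaphylatoxin C5a. It held 176, 116, 75.0 and 169 counts in the PBS tumors and 459.7, 633, 1273 and 735 in the GLA-SE tumors and rose by 2.53 ± 0.38. Of 7 terminal components 4 were higher (2 without PBS replicate 2 or 4 or GLA-SE replicate 2 or 3, 1 without PBS replicate 3), with a median of 0.73, and none was called on the panel scale. Only 4 of these 7 had a mean of at least 20 normalized counts in either group. In the classical and lectin list 9 of 11 did, and in the C3 and alternative list 6 of 6. The terminal median thus takes in genes that could not be read. The lowest gene of the classical list was C1qbp, a mitochondrial protein that also binds C1q, which was lower on the panel scale, at -0.95 ± 0.10.

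Genes of phagocytes rose broadly. Of 27 macrophage and scavenger genes 24 were higher, with a median of 1.32, and 11 were higher on the panel scale (6 without PBS replicate 1, 7 without PBS replicate 3), of 13 lysosome, phagosome and oxidase genes 12 and 7 were, and of 7 Fc receptor genes 6 and 5. Fcgr4, which binds IgG2a and IgG2b, held 344, 192, 333 and 267 counts in the PBS tumors and 1519, 1850.4, 1408 and 1460.2 in the GLA-SE tumors, a rise of 2.46 ± 0.20 (adjusted p = 0.000104) that did not rest on replicate 3, with 2.50 without it. Marco, a scavenger receptor for bacteria, held 18.3, 19.1, 18.9 and 16.1 in the PBS tumors, all under 20 counts, and 128, 59.98, 66.6 and 183 in the GLA-SE tumors and rose by 2.59 ± 0.39 (adjusted p = 0.000755). Msr1, another scavenger receptor, rose by 1.95 ± 0.22 and Mertk, which clears apoptotic cells, by 1.85 ± 0.23. Lyz2, the lysozyme of myeloid cells, held 36108, 29231, 28448 and 31741 counts in the PBS tumors and 81094, 84780.1, 111862 and 78728 in the GLA-SE tumors, a rise of 1.51 ± 0.14 (adjusted p = 0.000182). The inducible enzymes rose too, with Nos2, the nitric oxide synthase of macrophages, at 2.72 ± 0.66 (adjusted p = 0.0069) and 1.62 without replicate 3, and Arg2, a mitochondrial arginase, at 2.50 ± 0.53.

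Markers of host cell types were higher to differing degrees, beside 68.0% of all genes called higher, and their part in the changes was not tested. Summed over the 10 monocyte and macrophage markers, the PBS tumors held 31419 to 40121 normalized counts and the GLA-SE tumors 89755 to 132384, and all 10 were called higher. The 9 neutrophil markers summed to 314 to 380 counts in the PBS tumors, to 1347 to 3145 in GLA-SE replicates 1, 2 and 4 and to 12143 in replicate 3, with Cxcr1, Elane, Ltf and Camp under 20 counts on average in both groups, and 4 of the 9 were higher. The wider list of 14 neutrophil, granule and acute phase genes, which holds S100a8 and Lcn2, had 6 higher and a median of 0.50. The 10 endothelium and fibroblast markers summed to 4449 to 9923 and to 19443 to 28575, and all 10 were higher. The 12 T cell markers summed to 1459 to 3814 and to 3899 to 5182, and 8 were higher. The 7 NK markers summed to 315 to 1040 and to 1363 to 1616, with Klra4 under 20 counts on average, and 4 were higher. The 6 dendritic cell markers summed to 875 to 1199 in the PBS tumors. They summed to 1623 to 1953 in GLA-SE replicates 1, 2 and 4 and to 5681 in replicate 3, and 2 were higher. The 5 mast cell markers summed to 148 to 190.2 and to 263 to 432, and 4 were higher. On the panel scale 8 monocyte and macrophage, 4 neutrophil, 2 endothelium and fibroblast and 1 of the dendritic cell markers were higher. There 1 neutrophil, 2 NK and 2 dendritic cell markers were lower, and no T cell or mast cell marker was called. In RNA of whole tumors, fewer cells of a type and less RNA per cell cannot be told apart, nor more cells and more RNA per cell.

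Antigen presentation genes rose about as much as the panel. Of 16 MHC class I, transporter and immunoproteasome genes 13 were higher, with a median of 0.96, and 3 were higher and 2 lower on the panel scale (1 without PBS replicate 1 or 2, 0 without PBS replicate 4). Of 10 class II genes 9 were higher with a median of 0.93 and none was called in either direction on the panel scale (1 lower without GLA-SE replicate 3 and 1 higher without GLA-SE replicate 4). H2-Aa, the alpha chain of the class II molecule I-A, held 46108, 37269, 46081 and 44122 counts in the PBS tumors and 72485, 75672, 117421 and 66552 in the GLA-SE tumors and rose by 0.94 ± 0.19 (adjusted p = 0.0028). Among class I genes H2-D1 rose by 1.25 ± 0.17 and Tap1, a subunit of the peptide transporter, by 0.95 ± 0.14, while the immunoproteasome subunit gene Psmb8 rose by 0.33 ± 0.08 and was lower on the panel scale, at -0.55 ± 0.08. Near-identical class I genes may share probes, and their single values are uncertain for that reason. Costimulators of antigen-presenting cells differed. Cd80 rose by 2.38 ± 0.53 (adjusted p = 0.00475) and by 1.57 without replicate 3, and Cd86 by 1.30 ± 0.24. Cd40, at 0.92, and Icosl, at 1.03, rose about as much as the panel. On the panel scale the call of Cd80 ended without PBS replicate 1, 2 or 3. Aire, the autoimmune regulator, held 15.3, 15.1, 22.1 and 10.2 counts in the PBS tumors and 48.6, 66.6, 728 and 92.7 in the GLA-SE tumors, mostly from replicate 3, and rose by 3.89 ± 0.95 with it and 2.13 without it.

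The T cell receptor and NK lists had medians under that of the panel, and the list of cytotoxic granule genes one above it. Of 23 T cell receptor, kinase and coreceptor genes 16 were higher (7 without PBS replicate 3, 9 without GLA-SE replicate 4), with a median of 0.78, and 1 was higher on the panel scale. That gene was Thy1, a surface glycoprotein of T cells and fibroblasts, at 1.43 ± 0.22 on the reference-gene scale and 0.56 ± 0.17 on the panel scale, a call that ended without PBS replicate 2 or 3 or GLA-SE replicate 4. Cd8a, the coreceptor of cytotoxic T cells, held 212, 74.3, 98.6 and 215 counts in the PBS tumors and 208, 218, 324 and 327 in the GLA-SE tumors, and the groups overlapped (adjusted p = 0.0689, and 0.0436 with DESeq2). Of 19 costimulatory and coinhibitory receptors 16 were higher, with a median of 0.96, and the largest rise was that of Icos, at 1.79 ± 0.45 (adjusted p = 0.00792). Of 26 NK receptor and ligand genes 9 were higher on the reference-gene scale, which is 34.6% against 68.0% of the panel, and 1 was higher (2 without GLA-SE replicate 1 or 3) and 6 were lower on the panel scale. Only 16 of the 26 had a mean of at least 20 normalized counts in either group. Over the whole panel, 10 of the 60 genes under that mean in both groups were called higher. The share and median of this list thus take in genes that could not be read. The gene called higher on both was Klra2, an inhibitory Ly49 receptor also found on myeloid cells, with 99.7, 39.2, 74.2 and 73.0 counts in the PBS tumors and 239, 322, 338 and 330.4 in the GLA-SE tumors, a rise of 2.10 ± 0.28, though other Klra genes are close in sequence. Ncr1, which encodes the NK receptor NKp46, rose by 1.65 ± 0.44. Ulbp1, a stress ligand of the NK receptor NKG2D, was among the largest falls on the panel scale, at -1.18 ± 0.17 (adjusted p = 0.00129). Of 6 cytotoxic granule genes 4 were higher, with a median of 1.63, and 3 were higher on the panel scale. Ctsw, a protease of cytotoxic lymphocytes, rose by 1.20 ± 0.28, against 3.11 for Gzma, and the granzyme gene Gzmk, at 0.73 ± 0.47 (adjusted p = 0.191), was not called.

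Vessel, matrix and adhesion genes rose near the panel median, with a few well ahead. Of 28 endothelium, fibroblast and matrix genes 22 were higher, with a median of 0.96, and of 28 integrins, selectins and adhesion ligands 23 were, with a median of 1.08. Spp1, which encodes osteopontin, held 399.7, 171, 129 and 199 counts in the PBS tumors and 1418, 3002, 976 and 995 in the GLA-SE tumors and rose by 2.83 ± 0.48 (adjusted p = 0.00138). Col1a1, a chain of type I collagen, held 2351, 2466, 1379 and 2810.4 in the PBS tumors and 7199.6, 8765, 7371 and 5781 in the GLA-SE tumors, a rise of 1.69 ± 0.22, and both genes were called on the panel scale with any tumor left out. Sele, the E-selectin of inflamed endothelium, held 18.3, 14.1, 11.0 and 11.9 counts in the PBS tumors and 30.0, 64.4, 111 and 62.2 in the GLA-SE tumors and rose by 2.27 ± 0.40 (adjusted p = 0.00154). Vcam1, an adhesion ligand for lymphocytes and monocytes, rose by 1.76 ± 0.28 and Icam1 by 1.46 ± 0.20, whereas Icam2, a constitutive relative, was lower on the panel scale, at -1.12 ± 0.25. Glycam1, an endothelial mucin of lymph node venules, held 45.8, 53.2, 26.0 and 33.9 counts in the PBS tumors and 1197, 268, 74.8 and 28.4 in the GLA-SE tumors, overlapped between the groups and was highest in the same tumor as Ccl21a. Its rise of 3.31 ± 1.04 (adjusted p = 0.0205) lost its call without PBS replicate 3 or 4 or GLA-SE replicate 1 and was 1.64 without GLA-SE replicate 1.

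Beside the signaling lists above, genes lower on the panel scale were most frequent in 4 more lists, described here. Their share was also above that of all genes among autophagy genes (3 of 5, 2 without GLA-SE replicate 3), interferon regulatory factors (3 of 7) and TGF-beta genes (3 of 9). The same held for the other panel genes (11 of 34). It was slightly above that of all genes among arginine, prostaglandin and adenosine enzymes (3 of 12), interferon and JAK-STAT genes (5 of 21) and NK genes (6 of 26). Of 28 B cell genes 20 were lower on the panel scale and 2 higher, while on the reference-gene scale 11 were higher and 2 lower (4 without GLA-SE replicate 1), with a median of 0.21. Of 19 ubiquitous RNA, proteasome and chromatin genes 17 were lower on the panel scale, of 11 cell cycle genes 8 and of 12 apoptosis regulators 8, against 21.7% of all genes. Bcl6, a repressor that marks germinal center B cells, held 1893, 2439.6, 2097 and 2048 panel-scale counts in the PBS tumors and 1168, 961, 416 and 915 in the GLA-SE tumors and was lower, at -1.29 ± 0.27 (adjusted p = 0.00532). Pax5, the factor that keeps B cell identity, held 1387, 1818, 1554 and 1622 in the PBS tumors and 952, 819.7, 466 and 684 in the GLA-SE tumors, lower, at -1.13 ± 0.21 (adjusted p = 0.00302). In both genes every GLA-SE tumor was below every PBS tumor on that scale, and replicate 3 was the lowest. Cd79a, a signal chain of the B cell receptor, was lower, at -1.12 ± 0.21, and Birc5, the survivin gene of dividing cells, at -1.12 ± 0.18. The 4 genes called lower on the reference-gene scale lay in these same lists, 2 of them genes of B cells. Ms4a1, which encodes CD20, held 8632, 11013, 9618 and 9385 normalized counts in the PBS tumors and 8214, 6813, 6742 and 6408 in the GLA-SE tumors and fell, at -0.46 ± 0.11 (adjusted p = 0.00731). Cd79b, the partner of Cd79a in the B cell receptor, held 6878, 7637, 6442 and 6679 and 5803, 4905, 4762 and 5231 and fell, at -0.42 ± 0.10 (adjusted p = 0.00569). Anp32b, a histone chaperone, was at -0.30 ± 0.08 (adjusted p = 0.0104) and Nup107, a component of the nuclear pore, at -0.26 ± 0.10 (adjusted p = 0.0479). The call of Nup107 ended when any tumor except GLA-SE replicate 2 was left out, while the other 3 stayed called with any tumor left out. With the SE tumors in the same fit none of the 4 was called. The groups did not overlap in any of the 4, and each was among the 15 largest falls on the panel scale, which were those of Ms4a1, Bcl6, Cd79b, Ulbp1, Anp32b, Klrb1c, Nup107, Pax5, Icam2, Cd79a, Birc5, Ticam2, Hmgb1, Sh2b2 and Ada. On the reference-gene scale neither Bcl6 (adjusted p = 0.0852) nor Pax5 (adjusted p = 0.153) was called.

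A few genes of these lists were higher on the panel scale. Besides Cd38, the B cell gene called higher on the panel scale was Prdm1, which encodes BLIMP-1, the factor of plasma cell differentiation and of effector lymphocytes. It held 82.4, 68.3, 92.3 and 91.6 counts in the PBS tumors and 339.9, 275, 483 and 245 in the GLA-SE tumors and rose by 2.00 ± 0.25 (adjusted p = 0.000331). Cdkn1a, the cell cycle inhibitor p21, held 463, 317, 435 and 442 in the PBS tumors and 867, 1466, 2672 and 1273 in the GLA-SE tumors and rose by 1.92 ± 0.32 (adjusted p = 0.00131). It was the cell cycle gene called higher on the panel scale, and it stayed called with any tumor left out. Bcl2, an inhibitor of apoptosis, rose by 1.59 ± 0.21 and Clu, the chaperone clusterin, by 1.53 ± 0.25, while Trp53 was lower on the panel scale, at -1.02 ± 0.15, as were Bax at -0.95 ± 0.10 and Hmgb1, a nuclear protein that dying cells release, at -1.08 ± 0.13. The call of Clu on the panel scale, at 0.65, ended without PBS replicate 1, 2 or 4 or GLA-SE replicate 1 or 2.

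**Figure D4:**
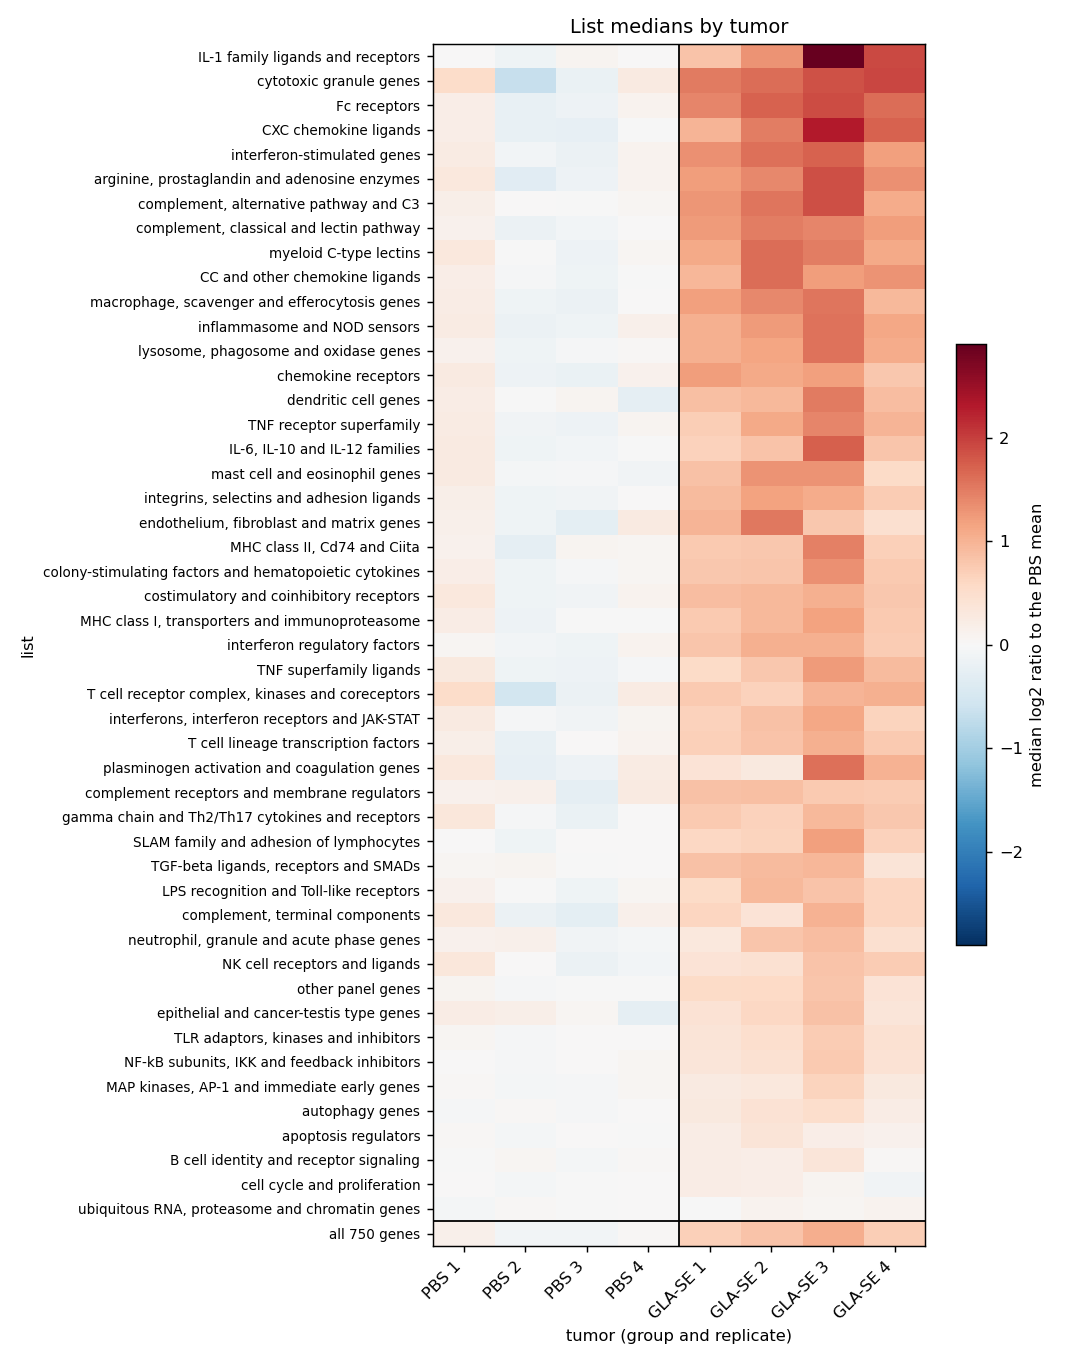
Median over each list of the log2 ratio of a tumor's normalized count (reference-gene scale, pseudocount of 1) to the PBS mean of the log2 values, with the 48 lists as rows, ordered by their mean over the GLA-SE tumors, and the 8 tumors as columns. Red is higher and blue lower, and the bottom row gives all 750 genes, which run from 0.69 to 1.06 in the GLA-SE tumors, highest in replicate 3.

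Seen by tumor, the lists differed in how even they were. Over all 750 genes the median of a tumor's log2 ratio to the PBS mean was 0.69, 0.82, 1.06 and 0.72 in GLA-SE replicates 1 to 4. For the interferon-stimulated genes it was 1.32, 1.61, 1.71 and 1.19, above the panel in each. For the ubiquitous genes it was -0.02, 0.10, 0.06 and 0.09, below the panel in each. The CXC ligands were less even, with 0.99 in replicate 1 and 2.29 in replicate 3, and so was the IL-1 family, with 0.83 and 2.90.

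Some of the panel could not be read. In 60 genes both group means were under 20 normalized counts, and 10 of them were called higher on the reference-gene scale and 11 lower on the panel scale. They include Il5, Il17a and several Klra genes, and for such genes probe background is not told apart from RNA. Of 16 epithelial and cancer-testis type genes 5 were called higher (2 without PBS replicate 2 or 4 or GLA-SE replicate 2, 3 without GLA-SE replicate 3), and 10 had a mean of at least 20 in either group.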

How the data were processed

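RNA of 12 A20 tumors, extracted with a Qiagen Allprep kit, was counted by the authors on the nCounter mouse PanCancer Immune Profiling Panel. The deposited values are whole-number counts per gene. The methods name nSolver for normalization, but totals and reference genes differ between tumors, so the counts were taken as unnormalized. The 4 PBS and 4 GLA-SE tumors were compared with the quasi-likelihood test of edgeR 4.0.16 (R 4.3.3), two-sided, with no filter and no covariate, and with Benjamini-Hochberg adjustment over 750 genes. Each standard error was derived from that test, as the log2 fold change without its sign divided by the square root of the F statistic. The reference-gene factor was the geometric mean of 15 of 20 reference genes, selected by geNorm. The panel factor was the median of ratios over the 672 other genes with a mean count of at least 20. The test was tested on simulated data. Alternatives were a filter of 20 counts in 4 tumors, DESeq2 1.42.0, limma 3.58.1 on log2(normalized count + 1), other scalings, all 12 tumors in 1 fit, a replicate block and each tumor left out. Of 770 symbols, 754 matched RefSeq symbols and 8 matched synonyms, and promoters were from the GRCm38.p6 assembly. Members and lists were chosen with earlier results of these data known. Genes to name were those called, with a mean of at least 20 normalized counts in the higher group and no overlap of the groups, with the 15 largest rises and every fall on the reference-gene scale and the 15 largest rises and falls on the panel scale, and in each list the largest rise, the smallest adjusted p and the lowest log2 fold change. Values are given for a part of them, and for other list members. Some genes are not reported here.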

Additional observations from a re-analysis of the deposited data

Results flagged for a closer look

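Among the 114 genes named with values, 228 groups of 4 tumors were examined, and in 22 a single tumor lay further from its nearest neighbor, as a share of the group's range, than Dixon's critical value allows. Chance alone gives this in about 5% of groups of independent, normally distributed values. The genes share the same tumors and many were named for large rises, so the 22 cannot be set against that rate. In 18 of the 22 groups GLA-SE replicate 3 was far above the other treated tumors. The normalized counts were 3224 for Abca1 against 1861 to 1976, 728 for Aire against 48.6 to 92.7, 1063 for Bax against 866 to 893, 4388 for Ccrl2 against 443 to 576, 7203 for Cd14 against 394 to 1245, 3124 for Cd38 against 1199.6 to 1419.9, 505 for Cxcr2 against 50.0 to 108, 505 for Icos against 159 to 216, 9374 for Il1rn against 946 to 1997, 2011 for Irf4 against 846 to 937, 1645 for Isg15 against 549.6 to 666, 2558 for Lcn2 against 451 to 788, 4744 for Nfkbia against 1209 to 1647, 1541 for Nos2 against 193 to 357, 432 for Prg2 against 78.5 to 132, 2897 for Tnfaip3 against 670.5 to 871, 2168 for Tnfrsf1b against 624 to 805, and 610.0 for Tnfsf15 against 38.9 to 62.2. GLA-SE replicate 1 was below the other GLA-SE tumors in Klra2, with 239 against 322 to 338. GLA-SE replicate 2 was above the other GLA-SE tumors in Il4, with 43.3 against 12.4 to 15.2. GLA-SE replicate 3 was below the other GLA-SE tumors in Birc5, with 431 against 528 to 548. PBS replicate 3 was above the other PBS tumors in Ccl21a, with 271 against 42.4 to 65.1.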

How the results depend on the processing

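When each tumor was left out in turn, 436 to 499 genes were called higher and 3 to 5 lower on the reference-gene scale, 107 to 153 higher and 134 to 162 lower on the panel scale, and the panel median was 0.74 to 0.97. In the reference-gene comparison TMM scaling gave 148 higher, 168 lower and a panel median of -0.0087, the deposited counts without rescaling gave 17 lower and a median of 0.61, and all 20 reference genes gave 8 lower. With the SE tumors in the same fit 253 genes were higher and 0 lower on the reference-gene scale and 59 higher and 30 lower on the panel scale. At an unadjusted p under 0.05 edgeR's fit with the SE tumors held 2 lower genes on the reference-gene scale, and in the 8 tumors DESeq2 called 5 lower and limma 4. Scaling to each tumor's median count gave 61 higher and 307 lower. The filter on low counts, DESeq2 and limma moved none of the counts of calls by over 1.5 times. Same-numbered tumors deviated from their group means with correlations of -0.13, 0.14, 0.04 and 0.09, so the replicate numbers were not taken as pairs. With the replicate number as a block, 435 genes were higher and 2 lower on the reference-gene scale, 122 were higher and 132 lower on the panel scale, and of the named genes Anp32b, Ccl21a, Glycam1, Nup107 and Tnfsf15 were not called on the reference-gene scale, nor Fos on the panel scale. Fos was also not called on the panel scale with TMM. In a fit without GLA-SE replicate 3 that recomputed the panel scaling, chosen after seeing the data, Fos was not called and 150 genes were higher and 167 lower. With each tumor left out, uncalled values on the reference-gene scale changed sign for Ccl19 (-0.0075 to 0.18), Ifna1 (-0.63 to 0.041), Myc (-0.25 to 0.0046) and Nfkb2 (-0.048 to 0.16). DESeq2 gave no adjusted p for Aire, Ccrl2 and Tnfsf15. The cause of these differences was not tested. In 60 genes both group means were under 20 normalized counts, where counting error limits what can be seen.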

Other observations

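Smaller gene groups not described above also held genes that rose. Of 7 plasminogen activation and coagulation genes 3 were called higher and 0 lower on the reference-gene scale. That share of 42.9% was under the 68.0% of all genes, although the median log2 fold change was 1.26 beside 0.89 over the panel. The list was uneven by tumor. Its median log2 ratio to the PBS mean was 0.39 and 0.28 in GLA-SE replicates 1 and 2, under the 0.69 and 0.82 of all genes. In GLA-SE replicates 3 and 4 it was above that of all genes. Plau, which encodes urokinase, rose by 1.26 ± 0.20 (adjusted p = 0.00091) and Plaur, its receptor, by 1.49 ± 0.33 (adjusted p = 0.00443, both by edgeR's quasi-likelihood test). Of 5 mast cell and eosinophil genes 4 were called higher, with a median of 0.99. Prg2, a granule protein of eosinophils, held 48.8, 29.1, 41.0 and 58.5 normalized counts in the PBS tumors and 78.5, 132, 432 and 132 in the GLA-SE tumors, with 2.12 ± 0.53 (adjusted p = 0.00792) and 1.36 without GLA-SE replicate 3. The groups did not overlap, and replicate 3 was far above the other treated tumors.

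Among the macrophage and scavenger genes, 3 that act in cholesterol transport rose, and they are named here after their values were seen. Apoe, a lipoprotein component, rose by 1.92 ± 0.32, and the cholesterol exporters Abcg1 and Abca1 by 1.57 ± 0.19 and 1.17 ± 0.20. Hif1a, a transcription factor of the response to low oxygen, chosen in the same way, held 3379, 3096, 3464 and 3508 normalized counts in the PBS tumors and 5788, 7097, 12316 and 6765 in the GLA-SE tumors, a rise of 1.25 ± 0.22. For each of these genes every GLA-SE tumor lay above every PBS tumor.

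The 4 tumors injected with SE alone entered the report only through the alternative fit of all 12 tumors, and their values are given here without a test. On the same reference-gene scale, every GLA-SE tumor lay above every SE tumor in 108 of 750 genes (14.4%), of which 97 were among the 510 called higher against PBS. The SE tumors held 163 to 449 normalized counts of Cxcl11, 138 to 796 of Gzma and 312 to 835 of Cd38, and for these 3 genes all SE tumors lay below all GLA-SE tumors. They held 72.3 to 3723 of Lcn2, a range that covers the GLA-SE tumors. In 63 genes (8.4%) every SE tumor lay above every PBS tumor. SE replicate 4 had the lowest counts of reference genes of the 12 tumors, with a geometric mean of 878 against 1432 to 2641 in the other SE tumors. The log2 ratio of the panel factor to the reference-gene factor was -0.58, -0.57, 0.14 and 0.77 in SE replicates 1 to 4. SE replicate 3 was thus above every PBS tumor in this ratio, and SE replicate 4 above every GLA-SE tumor.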
